A study of Mus musculus with 4 samples.

Results

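The genes described here are 35 genes of autophagy and the lysosome, named one by one from the steps of the pathway and matched by Ensembl identifier to the 37310 genes of the expression table. All 35 were found, 2 of them under an older symbol (*Tfeb* as Tcfeb and *Tfe3* as Tcfe3), and all 35 passed the filter on low values, so that none is left out of the counts. Expression was measured by mRNA-seq in mouse embryonic stem cells (mESCs) of the JM8 line, from the C57BL6/N strain, with 2 wild-type libraries and 2 libraries labelled *Bmal1*-/-. The mutant is a single clonal line made from JM8 with CRISPR/Cas9, and *Bmal1* encodes the core clock activator that pairs with Clock. All cells grew without feeders on gelatin in serum-free 2i + LIF medium, in which 1 µM PD0325901 blocks Mek, 3 µM CHIR99021 blocks Gsk3 and LIF sustains self-renewal. Each label stands for 1 line, so genotype and line cannot be told apart.

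Autophagy delivers cytoplasm and organelles to the lysosome for breakdown. The Ulk1 kinase complex starts the process, the Vps34 lipid kinase complex marks the forming membrane with a phosphoinositide that Wipi proteins read, and the Atg12-Atg5-Atg16l1 conjugate attaches ubiquitin-like Atg8 proteins to that membrane, where cargo receptors dock. Lysosomes then supply cathepsin proteases in a lumen acidified by the V-ATPase proton pump, and the transcription factors Tfeb and Tfe3, held in the cytoplasm when folliculin and the Rag GTPases are active, switch on many of these genes. In mESCs, Tfe3 is known for holding back exit from the naive state.

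Bmal1 with Clock, and Tfeb and Tfe3, all bind the E-box CACGTG, so the promoters were read for that motif. In the RefSeq promoter table (GRCm38.p6, 250 bases before to 50 after each annotated start), which holds 27 of the 35 genes, 8 genes carried the motif in 1 of their windows, or 29.6%, against 8.09% of all 27025 genes in that table and 11.8% of the 9663 that were also tested for expression. The motif is its own reverse complement, so both strands are covered by 1 search. With a T before it (TCACGTG, sought on both strands, a subset of the first), 6 of the 27 genes matched, or 22.2%, against 6.90% of the tested genes. Of the further genes of the same pathways, listed further on, the promoter table holds 104. Among these, 24 carried CACGTG (23.08%) and 22 carried TCACGTG (21.15%), so these shares were not particular to the 35 genes. The 5 stretches below come from members with and without a difference between the labels and are printed 5′ to 3′ on the strand of the gene, with each CACGTG in capitals.
Atg3 (chr16:45158708-45158767, plus strand): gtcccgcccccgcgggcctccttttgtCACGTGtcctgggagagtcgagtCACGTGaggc
Atg5 (chr10:44268298-44268338, plus strand): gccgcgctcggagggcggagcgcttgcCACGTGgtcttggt
Atp6v1a (chr16:44139358-44139417, minus strand): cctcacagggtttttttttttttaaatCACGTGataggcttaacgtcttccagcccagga
Ctsl (chr13:64370724-64370770, minus strand): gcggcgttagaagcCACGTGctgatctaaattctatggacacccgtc
Lamp1 (chr8:13159073-13159132, plus strand): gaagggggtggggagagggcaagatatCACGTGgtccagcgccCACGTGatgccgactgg
The other E-box genes were *Atg7*, *Ctsd* and *Atp6v0d1*. The genes absent from the promoter table were *Rb1cc1*, *Becn1*, *Pik3c3*, *Atg12*, *Atg16l1*, *Map1lc3a*, *Ctsb* and *Atp6v1h*. A match of letters is not a binding site, and its relation to expression is given by counts further on.

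Values are read counts per gene scaled by the authors for each library (trimmed mean of M values, TMM), and differences are log2 fold changes on log2(value + 1), *Bmal1*-/- over wild-type, with their standard error (SE) and Benjamini-Hochberg adjusted p from limma across all 14510 genes tested. A gene was called at an adjusted p under 0.05. The libraries held 21504265 to 23329034 reads on genes, and 3 reads were worth 2.82 to 3.19. Replicates correlated at 0.995 for wild-type and 0.996 for *Bmal1*-/- across genes, and libraries of different labels at 0.972 to 0.973. All 9 naive mESC markers, *Pou5f1* and *Nanog* among them, were detected, with 4 called higher and 4 lower in *Bmal1*-/-, from *Dppa3* at 51.7% of the wild-type mean to *Tfcp2l1* at 131%. Of 7 fibroblast markers 4 stood at 3 reads or fewer in every library, with *Lum* and *Dcn* at 0. *Thy1* was called higher, at 33.7 and 42.5 in wild-type and 53.5 and 62.0 in *Bmal1*-/- (0.59, limma adjusted p = 0.026). By DESeq2 it was not called (adjusted p = 0.18). *Col1a1* (135% of wild-type) and *Pdgfra* (89.6%) were not called. The summed macrophage markers lay between 339 and 381 in the 4 libraries, nearly all from *Cd68*, with *Adgre1*, *Lyz2* and *Tyrobp* at 0. *Cd68* was not called (102% of wild-type). Below the filter, *Csf1r* stood at 0 and 1 reads in wild-type against 10 and 11 in *Bmal1*-/-. *Cd14* stood at 5 and 2 reads against 9 and 9, *Itgam* at 5 and 3 against 6 and 5, and *Ptprc* at 0 and 0 against 1 and 0. Summed primitive endoderm markers were 607 and 639 in wild-type and 717 and 752 in *Bmal1*-/-, mostly from *Lama1* (124%), and single ones went both ways: *Sox17* stood at 249.5% and *Gata4* at 147% of wild-type, *Sox7* at 18.3%, and *Gata6* at 6 and 6 reads against 0 and 3. Summed fibroblast markers were 97.7 and 102 against 123 and 131. Their part in the differences below was not tested. In bulk RNA, fewer cells of a type and less RNA per cell cannot be told apart.

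The targeted gene, listed as *Arntl*, stood at 678 and 733 in wild-type and at 556 and 590.3 in *Bmal1*-/-. Both *Bmal1*-/- libraries lay below both wild-type libraries, at 81.2% of its mean (log2 fold change -0.30, SE 0.07, adjusted p = 0.0011). For its mutant line the study reports frameshift indels in both alleles, with no *Bmal1* mRNA detected by RT-qPCR and no protein by Western blot. The values here count reads over the whole gene, and the difference from the RT-qPCR result was not tested. This gene-level value does not check the genotype.

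Of the 35 genes, 8 were higher in *Bmal1*-/- (22.9%) and 10 were lower (28.6%), while 17 were not called. Among all genes tested, 24% were called higher and 28.6% lower, 52.6% in all, so the shares of the autophagy and lysosome genes were near the background. None of the 35 passed 2-fold by limma, edgeR or DESeq2, against 7.21% of all genes past 2-fold with an adjusted p under 0.05 (5.75% higher and 1.45% lower). An unadjusted limma p under 0.05 was found for 19 of the 35, beside 57.7% of all genes. All 35 had a mean of 100 or more, and among the 10486 genes at that level 3.03% passed 2-fold, 23.8% were called higher and 36.1% lower. Their median log2 fold change was -0.05, beside -0.03 over all genes tested, and single genes ran from -0.58 (*Tfe3*) to 0.81 (*Gabarapl2*). The size of the differences was modest as well, with a median absolute log2 fold change of 0.15, beside 0.20 over those 10486 genes. Both libraries of *Bmal1*-/- lay above both wild-type libraries for 10 of the 35 genes and below them for 15, beside 34.6% and 41.4% of all genes tested. With equal library totals in place of the authors' scaling, 10 were called higher and 7 lower.

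**Figure D1:**
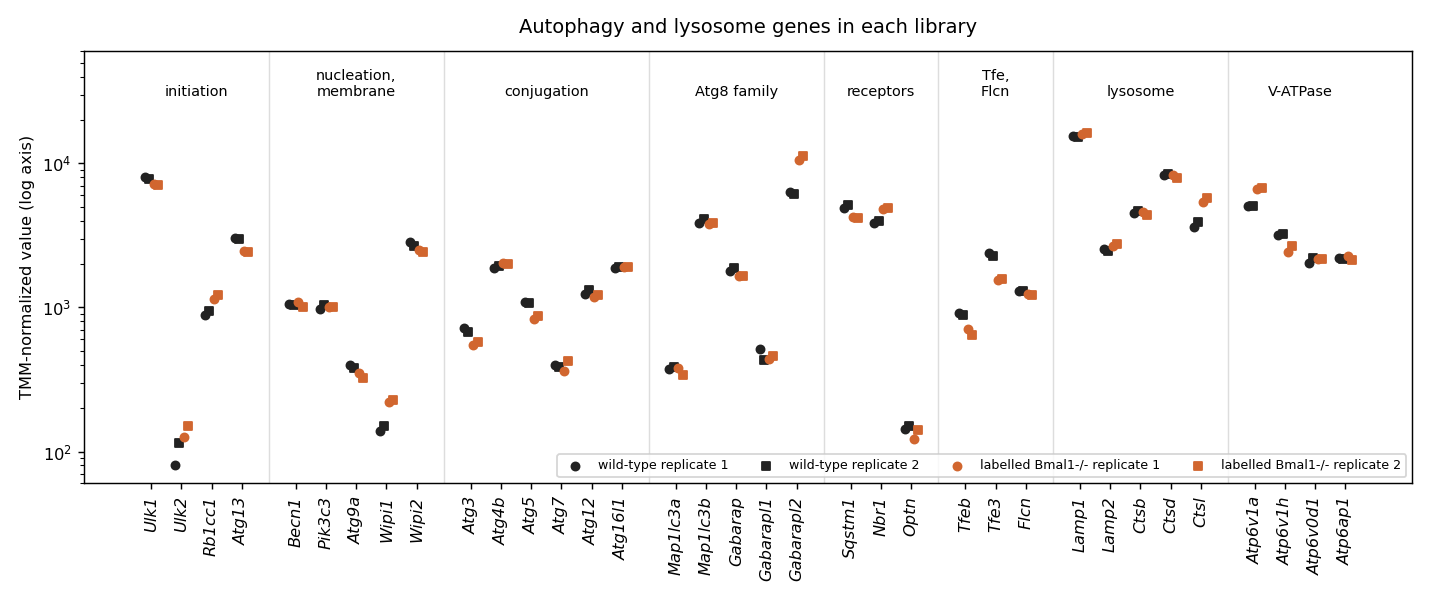
TMM-normalized value (log axis) of the 35 genes in each of the 4 libraries, grouped by role; black marks are wild-type and orange marks *Bmal1*-/- libraries, circles replicate 1 and squares replicate 2. The marks of the 2 labels separate most widely for *Gabarapl2*, *Wipi1*, *Tfe3* and *Ctsl*, while *Becn1*, *Atg16l1* and *Atp6ap1* overlap.

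The plot of values by library shows replicates lying close together for most genes, with the widest gap within a label for *Ulk2*. The plot of fold changes sets the same genes against the 2-fold lines, which none of them reached.

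**Figure D2:**
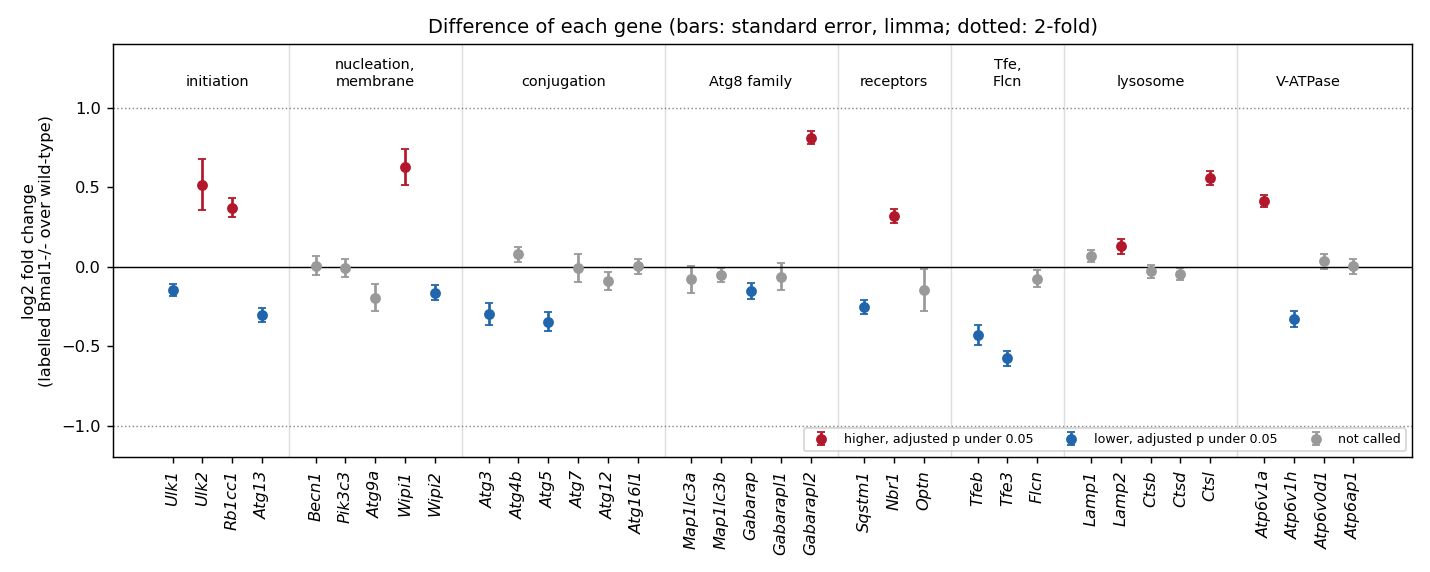
Log2 fold change (*Bmal1*-/- over wild-type) of each of the 35 genes with its standard error from limma; red points were called higher, blue points lower and grey points not called, and dotted lines mark 2-fold. *Gabarapl2* is the highest at 0.81 and *Tfe3* the lowest at -0.58.

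The 4 genes of the initiation complex were all called, 2 higher and 2 lower, beside 52.6% of all genes called in either direction. *Atg13*, the regulatory subunit through which the kinase is tuned by nutrients, stood at 3055 and 2983 in wild-type and at 2478 and 2409 in *Bmal1*-/- (log2 fold change -0.31, SE 0.04, adjusted p = 9.0e-06). *Rb1cc1*, encoding the scaffold Fip200, stood at 879.7 and 946 in wild-type and at 1141 and 1222 in *Bmal1*-/- (0.37, SE 0.06, adjusted p = 2.8e-05). The libraries of the labels did not overlap for either gene, so the scaffold rose while the regulatory subunit fell. *Ulk1*, the kinase, stood at 8024 and 7839 against 7233 and 7084 (-0.15, SE 0.04, adjusted p = 0.0031), a difference no longer called with equal library totals (-0.09, adjusted p = 0.064) or by limma without the trend (adjusted p = 0.096). *Ulk2*, its less abundant paralogue here, stood at 81.1 and 114 against 127 and 149.7 (0.52, SE 0.16, adjusted p = 0.010). The *Ulk2* difference rested on few reads, 77 in its lowest library, and was 0.28 without wild-type replicate 1 (adjusted p = 0.14), 0.40 without *Bmal1*-/- replicate 2 (adjusted p = 0.15). Per kilobase of exons, *Ulk2* made up 1.06% ± 0.265 (SD, n = 2) of the pair in wild-type and 1.66% ± 0.215 in *Bmal1*-/-. *Ulk1* thus supplied nearly all mRNA of this pair under both labels.

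Of the 5 genes that build the forming membrane, 1 rose and 1 fell (20% each), beside 24% and 28.6% of all genes tested. *Wipi1*, a reader of the Vps34 lipid, stood at 139 and 149.8 in wild-type and at 221 and 226 in *Bmal1*-/- (0.63, SE 0.11, adjusted p = 9.6e-05). That is 155% of wild-type, the largest rise after *Gabarapl2* among the 35, and it kept its call under every alternative. *Wipi2*, its paralogue that recruits Atg16l1, stood at 2867 and 2673 against 2522 and 2419 (-0.16, SE 0.05, adjusted p = 0.0068), and this call was lost without wild-type replicate 1 (-0.11, adjusted p = 0.063) and without *Bmal1*-/- replicate 2 (-0.13, adjusted p = 0.098). The core of the lipid kinase complex overlapped between labels. *Becn1* stood at 1063 and 1034 against 1094 and 1012 (0.01, SE 0.06, adjusted p = 0.94). *Pik3c3*, encoding Vps34 itself, stood at 977 and 1045 against 1007 and 1003 (-0.01, SE 0.06, adjusted p = 0.93). The exons of *Becn1* share 43.9% of their bases with *Cntd1* on the opposite strand, whose own value reached at most 30.1. *Atg9a*, the scramblase of the vesicles that seed the membrane, stood at 399 and 379 against 353 and 326, which did not overlap but missed the threshold (-0.20, SE 0.08, adjusted p = 0.057). It was called lower with quantile normalization (-0.22) and with a replicate block.

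Among the 6 conjugation genes, 2 fell (33.3%) and none rose, beside 28.6% lower and 24% higher among all genes tested. *Atg5*, whose product is joined to Atg12 and then carries Atg16l1, stood at 1087 and 1069 in wild-type and at 827 and 871 in *Bmal1*-/- (-0.35, SE 0.06, adjusted p = 4.8e-05). *Atg3*, the E2-like enzyme that hands Atg8 proteins to their lipid, stood at 719.5 and 670.3 against 552 and 578 (-0.30, SE 0.07, adjusted p = 0.0011). Both kept their call under every alternative. Both carry an E-box in the stretches printed above, as do the higher genes *Ctsl* and *Atp6v1a*, and *Atg7*, which was not called, carries one too. The partners of Atg5 and Atg3 were not called. *Atg7*, the E1-like enzyme upstream of Atg3, stood at 401 and 388 against 364 and 422 (-0.01, SE 0.09, adjusted p = 0.94). *Atg12* stood at 1239 and 1321 against 1182 and 1219.6 (-0.09, SE 0.06, adjusted p = 0.17). *Atg16l1* was the flattest of them, at 1888 and 1906 against 1906 and 1896 (0.00, SE 0.05, adjusted p = 0.96). *Atg4b*, the protease that primes Atg8 proteins, stood at 1883 and 1944 against 2049.8 and 1986 (0.08, SE 0.05, adjusted p = 0.19), and was called with equal library totals (0.14) and with quantile normalization (0.12).

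The Atg8 family held the largest difference among the 35 genes. *Gabarapl2* (mm9 chr8:114464603-114477512, plus strand), also known as GATE-16, stood at 6285 and 6149.5 in wild-type and at 10596 and 11231 in *Bmal1*-/-. Both *Bmal1*-/- libraries lay far above both wild-type libraries, at 176% of the wild-type mean (0.81, SE 0.04, adjusted p = 1.2e-12), and the alternatives gave 0.77 to 0.87. None of the other 4 family members was called higher under any alternative. *Gabarap* stood at 1789.9 and 1883 against 1651 and 1647 (-0.16, SE 0.05, adjusted p = 0.012), a call lost with equal library totals (-0.09, adjusted p = 0.12), with DESeq2 (adjusted p = 0.16), without wild-type replicate 2 (adjusted p = 0.084) and without either *Bmal1*-/- replicate (adjusted p = 0.066 and 0.074). *Map1lc3b*, the LC3 protein most used to follow autophagosomes, stood at 3854 and 4076 against 3791 and 3842 (-0.05, SE 0.04, adjusted p = 0.31). *Map1lc3a* stood at 375 and 385 against 379 and 340.4 (-0.08, SE 0.09, adjusted p = 0.45). In this last gene, as in *Gabarapl1* at 512 and 433 against 442 and 461 (-0.06, SE 0.08, adjusted p = 0.55), the labels overlapped.

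Per kilobase of exons, *Gabarapl2* was the most abundant family member under both labels, and its share of the family rose from 40.7% ± 1.00 in wild-type to 56.0% ± 0.985 in *Bmal1*-/- (SD, n = 2 each, a description). *Map1lc3b* came next with 35.2% and 26.6%, then *Gabarap* with 15.1% and 10.7%. *Map1lc3a* held 4.89% and 3.64% and *Gabarapl1* 4.08% and 3.05%, which are close, yet in each of the 4 libraries *Map1lc3a* lay above *Gabarapl1*. The family sum per kilobase was 6533 and 6618 in wild-type and 8238 and 8517 in *Bmal1*-/-. Counted over the longest annotated transcript instead, *Gabarapl2* held 46.4% and 61.8%, and the order was the same.

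**Figure D3:**
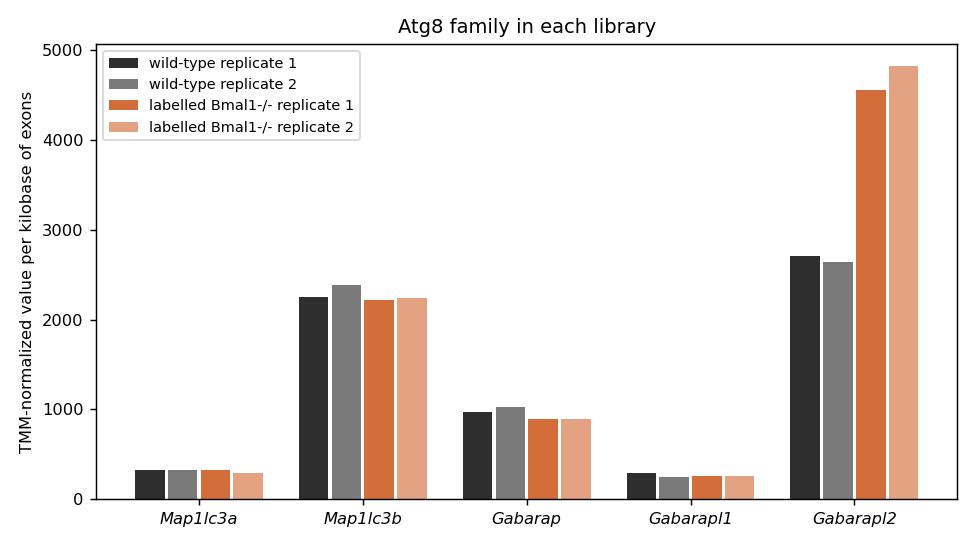
TMM-normalized value per kilobase of exons for the 5 Atg8 family genes; each bar is 1 library, black and grey for wild-type replicates 1 and 2, dark and light orange for *Bmal1*-/- replicates 1 and 2. *Gabarapl2* is the tallest group in every library, and its 2 *Bmal1*-/- bars stand well above its wild-type bars.

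In the plot of Atg8 levels, *Gabarapl2* is the 1 gene of the 5 whose *Bmal1*-/- bars stand above both wild-type bars. The genes beside it were looked at after its value was seen. *Tmem231*, a ciliary transition zone gene that runs the other way with its start 6912 bases from that of *Gabarapl2*, was also higher (0.66, SE 0.05, adjusted p = 2.8e-10), whereas *Cfdp1* (-0.37), *Adat1* (-0.23) and *Kars* (-0.19) were lower, and *Tmem170* (0.04) and *Terf2ip* (0.03) were not called. Over the 14 chromosomes that hold the 35 genes, the median log2 fold change of all genes tested ran from -0.09 to 0.01.

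The 3 cargo receptors split, with 1 higher and 1 lower, beside 24% and 28.6% of all genes tested. *Sqstm1*, encoding p62, which links ubiquitinated cargo to Atg8 proteins, stood at 4919.8 and 5129.7 in wild-type and at 4270.5 and 4155 in *Bmal1*-/- (-0.25, SE 0.04, adjusted p = 3.5e-05). *Nbr1*, a receptor that works with p62 on the same aggregates, stood at 3863 and 3973 against 4841 and 4930.1 (0.32, SE 0.04, adjusted p = 2.0e-06). Labels did not overlap for either gene, and each kept its direction and call under every alternative. *Optn*, optineurin, a receptor of damaged mitochondria and bacteria, stood at 143 and 149.8 against 123 and 142 (-0.15, SE 0.13, adjusted p = 0.36), with the widest error of the 3. The exons of *Sqstm1* share 17.3% of their bases with *3010026O09Rik* on the opposite strand, whose value reached at most 124.9.

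The transcription factor genes *Tfe3* and *Tfeb* were lower, while *Mitf* of the same family, given below, was not called. *Tfe3* (mm9 chrX:7339686-7352328, plus strand) stood at 2369 and 2291 in wild-type and at 1562 and 1565 in *Bmal1*-/-, or 67.1% of the wild-type mean (-0.58, SE 0.05, adjusted p = 4.0e-09). *Tfeb* stood at 919 and 891 against 704 and 641, or 74.3% (-0.43, SE 0.07, adjusted p = 1.3e-05). The labels did not overlap for either gene, and both calls held under every alternative. *Flcn*, folliculin, which acts on the Rag GTPases to keep Tfe3 out of the nucleus, stood at 1293 and 1298 against 1235 and 1224 (-0.07, SE 0.05, adjusted p = 0.24). mRNA levels carry no information on where these factors reside in the cell.

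The genes around these regulators, from a list of 14 of which 12 were tested, were lower in 9 cases and higher in 2 by limma, beside 28.6% and 24% of all genes. The list had 8 lower genes by edgeR and 6 by DESeq2, and 2 higher by each. Beside the genes named by rule, the whole Rag and Lamtor families are given, which was decided after their values were seen. *Rragb* (mm9 chrX:149574524-149606486, plus strand), a Rag GTPase that recruits mTORC1 to the lysosome, was the only gene of that list past 2-fold, at 504 and 501 in wild-type and 142 and 162 in *Bmal1*-/-. That left 30.2% of the wild-type mean (-1.72, SE 0.10, adjusted p = 8.4e-12), with -1.82 to -1.63 over the alternatives. *Rragd* stood at 1829 and 1724 against 1014.5 and 963 (-0.84, SE 0.05, adjusted p = 8.6e-11). *Rragc* (-0.27) and *Rraga* (-0.14) were lower too, the latter with an adjusted p of 0.024 that reached 0.25 under an alternative, so all 4 Rag GTPase genes were called in 1 direction. How reads shared by similar genes such as *Rraga* and *Rragb* were assigned is not given in the sources used here. Per kilobase, *Rraga* was the most abundant of the 4, with 52.6% of their sum in wild-type and 62.5% in *Bmal1*-/-, while *Rragb* went from 11.2% ± 0.123 to 4.45% ± 0.395.

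All 5 Lamtor genes, which encode the Ragulator scaffold that anchors Rag GTPases on the lysosome, were called lower by limma and by edgeR. DESeq2 called 3 of them. By limma, 28.6% of all genes tested were called lower, and 36.1% of those with a mean of at least 100. The Lamtor family was singled out after its values were seen. *Lamtor3* stood at 674 and 702 in wild-type and at 476 and 418 in *Bmal1*-/- (-0.62, SE 0.08, adjusted p = 8.8e-07). The other 4 were *Lamtor5* (-0.38), *Lamtor1* (-0.30), *Lamtor4* (-0.27) and *Lamtor2* (-0.19), the last pair with adjusted p-values that reached 0.084 and 0.19 under an alternative. Without wild-type replicate 1, *Lamtor4* was at -0.17. Opposite to them, the partners of folliculin were higher. *Fnip1* stood at 1106 and 1022 against 1468 and 1585 (0.52, SE 0.06, adjusted p = 2.7e-07). *Fnip2* stood at 909 and 782 against 1035 and 1005 (0.27, SE 0.07, adjusted p = 0.0018), a difference that was 0.17 without wild-type replicate 2 (adjusted p = 0.036) and not called by limma without the trend (adjusted p = 0.099). *Mitf*, the third of the Tfe family, stood at 1044 and 999.6 against 963 and 1053 (-0.02, adjusted p = 0.79), so that its share of the family per kilobase went from 28.5% to 36.0%.

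**Figure D4:**
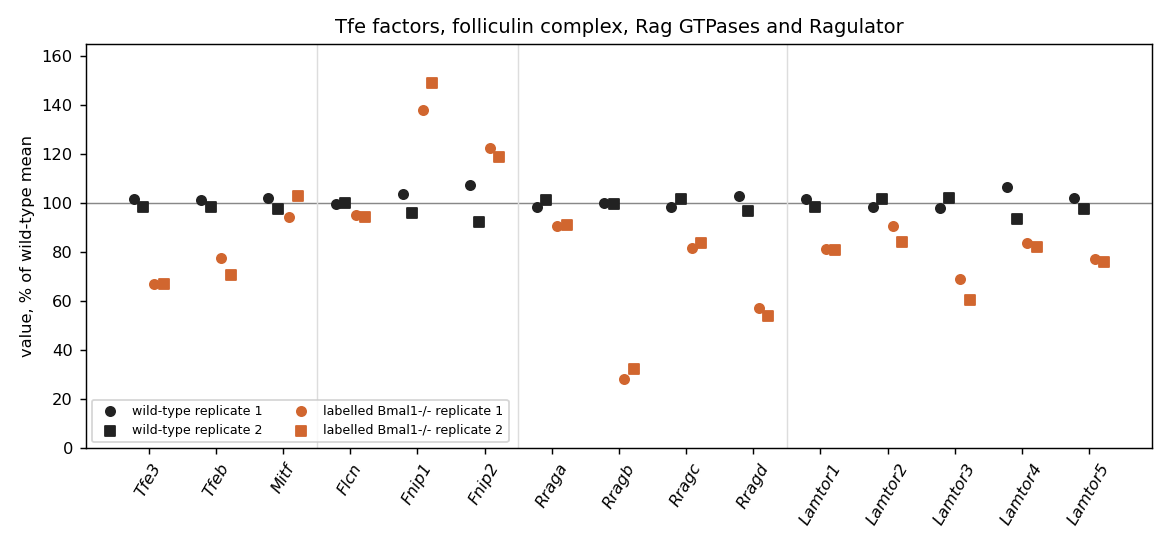
Value in each library as a percent of the wild-type mean for the Tfe factors, the folliculin complex, the Rag GTPases and the Lamtor genes; black marks are wild-type and orange marks *Bmal1*-/-, circles replicate 1 and squares replicate 2. *Rragb* sits lowest at a mean of 30.2%, *Fnip1* highest at 143%, and the 5 Lamtor genes all lie under 100.

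The plot of Tfe and Rag genes shows *Rragb* apart from its neighbours in the list. On the chromosome, *Foxr2*, whose start lies 21195 bases from that of *Rragb*, stood at 31.6 and 36.1 against 7.52 and 13.4 (-1.65, SE 0.34, adjusted p = 3.6e-04). Also lower were *Mageh1* (-0.59), *Ubqln2* (-0.23) and *2210013O21Rik* (-0.73), while *Klf8* was higher (0.22) and *Usp51* was not called (-0.42). Beside *Tfe3*, also on the X chromosome, *Kcnd1* (-0.72), *Ccdc120* (-0.48) and *Gripap1* (-0.36) were lower and *Wdr45* was higher (0.36), while *Praf2* (0.03) and *Otud5* (-0.11) were not called. These neighbours were chosen after the values of *Rragb* and *Tfe3* were seen.

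Of the 5 genes of the lysosomal membrane and cathepsins, 2 rose (40%) and none fell, beside 24% higher and 28.6% lower among all genes tested. *Ctsl*, encoding the cysteine protease cathepsin L, stood at 3644 and 3927 in wild-type and at 5414 and 5717 in *Bmal1*-/-, or 147% (0.56, SE 0.05, adjusted p = 3.0e-09). The other cathepsins were not called. *Ctsb* stood at 4527 and 4646 against 4584 and 4399 (-0.03, SE 0.04, adjusted p = 0.57). *Ctsd*, an aspartic protease, stood at 8241 and 8421 against 8253 and 7882 (-0.05, SE 0.04, adjusted p = 0.34). Per kilobase, the order in every library was *Ctsd*, then *Ctsl*, then *Ctsb*, and *Ctsl* went from 30.9% ± 0.790 of their sum to 40.4% ± 1.69 (SD, n = 2 each). The exons of *Ctsb* share 16.2% of their bases with *Fdft1* on the opposite strand, a gene with a value of up to 4742.

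Of the membrane glycoproteins that line the lysosome, *Lamp2* stood at 2540.0 and 2454 in wild-type and at 2684 and 2771 in *Bmal1*-/- (0.13, SE 0.05, adjusted p = 0.023). This call was lost with no filter and by limma without the trend. It was also lost when wild-type replicate 2 (0.10), *Bmal1*-/- replicate 1 (0.15) or *Bmal1*-/- replicate 2 (0.10) was left out. *Lamp1* stood at 15599 and 15179.9 against 16008 and 16279 (0.07, SE 0.04, adjusted p = 0.13). Its labels did not overlap, and it was called higher with median-ratio size factors (0.10), equal library totals (0.13), quantile normalization (0.15), edgeR (0.09) and DESeq2 (0.10). The exons of *Lamp1* share 7.8% of their bases with *Grtp1* on the opposite strand, at up to 1469.

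The 4 V-ATPase genes went 3 ways, with 1 higher and 1 lower (25% each), beside 24% and 28.6% of all genes tested. *Atp6v1a*, the catalytic subunit of the cytosolic V1 sector, stood at 5022 and 5073 in wild-type and at 6672 and 6777 in *Bmal1*-/-, or 133% (0.41, SE 0.04, adjusted p = 3.0e-08). *Atp6v1h*, the regulatory H subunit of the same sector, stood at 3171 and 3258 against 2443 and 2674, or 79.6% (-0.33, SE 0.05, adjusted p = 9.0e-06). Both calls held under every alternative, so that 2 subunits of 1 sector moved apart. *Atp6v0d1*, of the membrane V0 sector, stood at 2042 and 2186 against 2159 and 2164 (0.03, SE 0.05, adjusted p = 0.60). *Atp6ap1*, an accessory subunit, stood at 2215 and 2156 against 2258 and 2121 (0.00, SE 0.05, adjusted p = 0.98). Per kilobase of exons, *Atp6v1h* fell from 37.3% ± 0.0271 to 29.8% ± 1.46 of the 4 while *Atp6v1a* went from 19.1% ± 0.215 to 25.7% ± 0.0977. Over the longest transcripts the corresponding shares were 31.8% and 24.8% for *Atp6v1h* and 23.3% and 30.5% for *Atp6v1a*, so that *Atp6v1a* then ranked above *Atp6v1h* in *Bmal1*-/-.

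Of the 18 genes called among the 35, 13 kept their direction and call under all 16 alternatives in processing. The 5 that did not were *Ulk1*, *Ulk2*, *Wipi2*, *Gabarap* and *Lamp2*, and no called gene changed sign. By call, an E-box was carried by 2 of the 7 higher genes in the promoter table, by 2 of the 9 lower genes and by 4 of the 11 that were not called.

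Further genes of the same pathways were read from 5 lists written by hand, 127 genes in all, of which 115 were tested. Of these, 35 were higher (30.4%) and 26 lower (22.6%), beside 24% and 28.6% of all genes tested. Their median was 0.02, and 29 of the 61 calls held under every alternative. Among 27 other autophagy genes, 8 were higher (29.6%) and 4 lower (14.8%). *Atg14*, the subunit that directs Vps34 to autophagy, stood at 1344 and 1314 in wild-type and at 2306 and 2329.6 in *Bmal1*-/- (0.80, SE 0.05, adjusted p = 2.7e-11). *Stx17*, the SNARE that fuses autophagosomes with lysosomes, stood at 115 and 108 against 188 and 195 (0.78, SE 0.12, adjusted p = 2.4e-05). The lowest were *Atg9b* (-0.56, adjusted p = 4.2e-06), a paralogue of *Atg9a*, and *Vamp8* (-0.31, adjusted p = 0.0058), a SNARE that pairs with Stx17. The *Vamp8* call was lost by DESeq2 (-0.28, adjusted p = 0.12) and without *Bmal1*-/- replicate 2 (-0.29).

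Among 12 other receptors, 5 were higher (41.7%) and 1 lower (8.33%), beside 24% and 28.6% of all genes tested. With equal library totals, 6 were higher and 0 lower. *Bnip3*, a mitophagy receptor, stood at 271 and 296 in wild-type and at 494 and 550.2 in *Bmal1*-/- (0.88, SE 0.09, adjusted p = 4.7e-08). *Ncoa4*, the receptor of ferritin, stood at 1377 and 1383 against 1959.6 and 1868 (0.47, SE 0.05, adjusted p = 1.5e-07). *Wdfy3*, encoding the aggregate adaptor Alfy, was the least raised of the 5 (0.32, adjusted p = 1.3e-04), with 0.23 without wild-type replicate 2 and no call by limma without the trend (adjusted p = 0.064). The lower gene was *Bnip3l*, the paralogue of *Bnip3* (-0.17, adjusted p = 0.012). It was not called by DESeq2 (-0.13, adjusted p = 0.14), with equal library totals (-0.11, adjusted p = 0.10) or with quantile normalization (-0.12, adjusted p = 0.071). Its call was also lost without *Bmal1*-/- replicate 1 (-0.10).

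Of 47 other lysosomal genes tested, 19 were higher (40.4%) and 7 lower (14.9%), beside 24% and 28.6% of all genes. The counts were 22 and 2 with equal library totals, 15 and 2 with DESeq2 and 14 and 2 without *Bmal1*-/- replicate 2. *Arsb*, arylsulfatase B, was past 2-fold from a low level, at 15.8 and 17.0 in wild-type and 63.9 and 39.1 in *Bmal1*-/- (1.55, SE 0.28, adjusted p = 1.0e-04), with 1.19 to 1.90 over the alternatives. *Naglu*, which degrades heparan sulfate, stood at 32.7 and 35.1 against 52.6 and 47.7 (0.55, SE 0.22, adjusted p = 0.041), a call lost under 7 settings, among them without *Bmal1*-/- replicate 1 (0.48), without *Bmal1*-/- replicate 2 (0.62) and without wild-type replicate 1 (0.50). The lowest was *Manba*, beta-mannosidase, at 3196 and 2997 against 1646 and 1747 (-0.87, SE 0.05, adjusted p = 1.1e-11). *Hgsnat*, another enzyme of heparan sulfate breakdown, followed (-0.20, adjusted p = 0.020). It was not called by DESeq2 (-0.17, adjusted p = 0.22), with equal library totals (-0.14, adjusted p = 0.10) or with quantile normalization (-0.17, adjusted p = 0.051). Its call was also lost without wild-type replicate 2 (-0.15) or *Bmal1*-/- replicate 2 (-0.14).

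Of 17 other V-ATPase genes tested, 1 was higher (5.88%) and 5 were lower (29.4%), beside 24% and 28.6% of all genes. With equal library totals 2 were higher and 2 lower. The higher gene was *Atp6ap2*, an assembly factor (0.17, adjusted p = 0.0091), not called without *Bmal1*-/- replicate 2 (0.09, adjusted p = 0.27). The lowest were *Atp6v0e2*, at 373 and 389 against 292 and 255 (-0.48, SE 0.09, adjusted p = 1.9e-04), and *Atp6v1f*, at 1756 and 1797 against 1435 and 1335 (-0.36, SE 0.05, adjusted p = 8.6e-06). *Atp6v0b* was closest to no change among the lower genes (-0.16, adjusted p = 0.016). It was not called by DESeq2 (-0.13, adjusted p = 0.19), with equal library totals (-0.10, adjusted p = 0.13) or with quantile normalization (-0.10, adjusted p = 0.13). Its call was also lost without *Bmal1*-/- replicate 2 (-0.12).

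**Figure D5:**
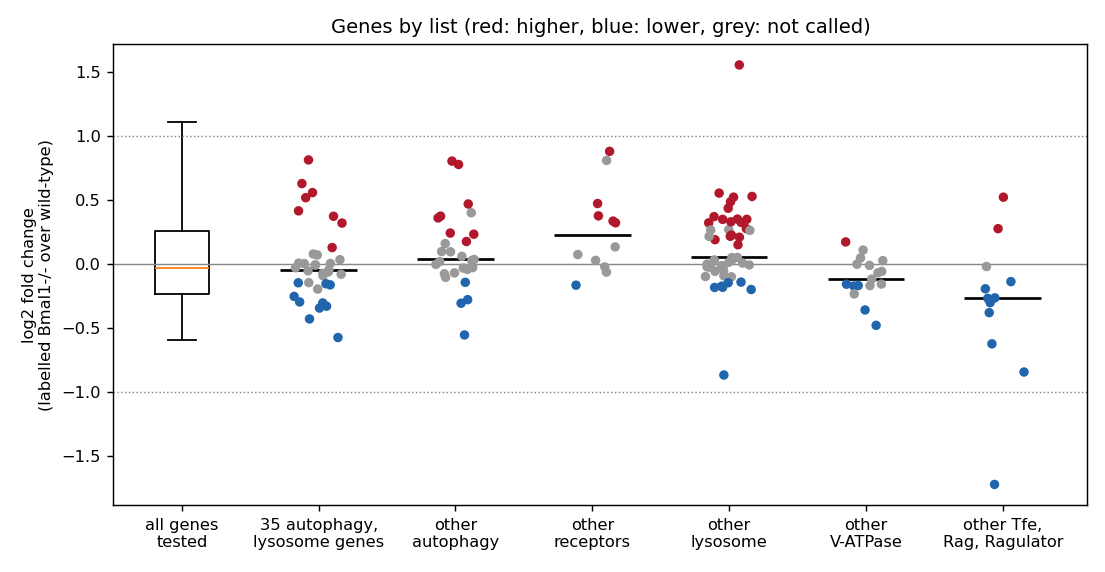
Log2 fold change (*Bmal1*-/- over wild-type) of every gene tested in the 35 genes and the 5 further lists, with the list median as a black bar; red points were called higher, blue points lower and grey points not called, and the box at the left gives quartiles of all 14510 genes with whiskers from the 5th to the 95th percentile. The further lysosomal genes hold *Arsb* at 1.55, and the list of Tfe, Rag and Lamtor genes has the lowest median at -0.27.

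The plot of the lists sets their medians side by side: 0.03 for other autophagy genes, 0.23 for other receptors, 0.05 for other lysosomal genes, -0.12 for other V-ATPase genes and -0.27 for the Tfe, Rag and Lamtor list, against -0.05 for the 35 genes and -0.03 for all genes. Quartiles of all genes lay at -0.23 and 0.26.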

How the data were processed

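The deposited table holds, for each gene and library, a normalized signal made by the authors: reads were demultiplexed with bcl2fastq 2.18.0.12 and trimmed with cutadapt 1.9.1 per the submitters' processing notes, aligned to mm9 with STAR 2.5.2b, counted per gene and scaled by TMM in NOISeq. The counting program, its annotation and its strand setting are not given in the sources used here. Each value was a whole multiple of 1 read (tolerance 0.01), so whole reads were recovered for 100% of values. The main test was limma 3.58.1 in R 4.3.3 on log2(value + 1), with a trend of variance on intensity and a prior worth 18.1 degrees of freedom. It compared 2 libraries with 2, without covariates, over the 14510 genes whose mean value was 10 or more. The authors' own test, DESeq2, needs counts, so DESeq2 1.42.0 and edgeR 4.0.16 (quasi-likelihood) on recovered reads were alternatives. The others were filters (none, 1, 100), pseudocounts (0.5, 10), scalings, limma without trend, a replicate block and each library left out. The tests were also run on simulated counts in which few genes differed. That run gives no error rate for these data, in which 52.6% of genes were called. Levels per kilobase used exon unions from GENCODE M1. Promoters and their coordinates are from RefSeq (GRCm38.p6), gene coordinates from mm9. Tables and figures used Python 3.11.15, pandas 2.3.3, numpy 2.4.6 and matplotlib 3.10.9.

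The 35 genes and the further lists, written by hand from general knowledge, were chosen with earlier results of these data known. Genes named beside the 35 are those past 2-fold and the 2 highest and 2 lowest called genes of each list. *Glb1* and *Slc38a9* matched 2 identifiers each and were not used, and 9 list genes were matched by an older symbol. P-values rest on the spread between replicates, which the series' design calls biological. In limma, the variance of each gene was combined with the trended prior worth 18.1 degrees of freedom. Its standard errors therefore do not reflect the replicates of the gene alone. The spread between clonal lines of the same genotype is not covered by any of the p-values.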

Additional observations from a re-analysis of the deposited data

How the results depend on the processing

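Under the 16 alternatives the counts among the 35 genes ran from 6 to 10 higher and from 7 to 11 lower, and none passed 2-fold under any of them. Leaving out 1 library gave 6 to 7 higher and 8 to 10 lower, with medians from -0.0565 to -0.0136 (the latter without *Bmal1*-/- replicate 2). The median log2 fold change of the 35 genes, -0.05, was -0.0155 with median-ratio size factors, 0.0137 with equal library totals, -0.0061 with quantile normalization, -0.0221 with edgeR and -0.0152 with DESeq2. These scalings moved the median of all genes by at most 0.06.

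Counts of calls in the further lists moved more. With no filter, 5 other autophagy genes, 3 receptors, 12 lysosomal genes, 0 V-ATPase genes and 1 gene of the Tfe and Rag list were higher, and 0 receptors, 4 lysosomal and 3 V-ATPase genes lower. Limma without trend gave 5, 12, 0 and 1 higher for autophagy, lysosomal, V-ATPase and Tfe and Rag genes, and 0 receptors, 1 lysosomal and 2 V-ATPase genes lower. With a mean of at least 1, 0 receptors were lower and 0 V-ATPase genes higher. Equal library totals gave 0 receptors, 2 lysosomal and 2 V-ATPase genes lower and 2 V-ATPase genes higher, and quantile normalization 0, 3 and 3 lower and 2 higher. DESeq2 gave 2 autophagy genes, 0 receptors, 2 lysosomal and 2 V-ATPase genes lower. Median-ratio size factors and edgeR each gave 2 V-ATPase genes higher. Without 1 library, 2 to 4 autophagy genes, 0 to 1 receptors, 2 to 6 lysosomal and 3 to 5 V-ATPase genes were lower and 0 to 2 V-ATPase genes higher; the lowest of these counts came without *Bmal1*-/- replicate 2, except for the receptors (without *Bmal1*-/- replicate 1). Why these counts moved was not tested.

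The replicate block gave 8 higher and 11 lower among the 35 genes (*Atg9a*, -0.20, adjusted p = 0.048, was added) and 2 V-ATPase genes higher. The labels do not say what a number stands for, and deviations of same-numbered libraries correlated at -0.02, so the numbers were not taken as pairs. Over the longest transcript, *Gabarapl2* made up 46.4% of the Atg8 family in wild-type (40.7% over exon unions) and *Atp6v0d1* 25.4% of the V-ATPase members. Of the genes named singly, 802 results stayed on their side of the threshold, 66 called ones lost the call and 10 gained one. With 2 libraries a label, small differences can be missed. The libraries were made with a stranded kit, but the strand setting of the counting is not given. Whether reads of overlapping opposite-strand genes were kept apart is therefore not known.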
